A study of Mus musculus with 44 samples.

Results

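The 8 genes described here, Cebpe, Psmb5, Cdh24, Ppp1r3e, Homez, Ebpl, Spryd7 and Acin1, lie on the same chromosome as Ripk3, mouse chromosome 14, and were listed because their liver transcript levels set Ripk3 knockout apart from wild-type mice. They come from the 100 tested genes that stand within 50 places of Ripk3 in the gene order, out of 14862 genes tested and 35249 genes in the count table. The difference between Ripk3 knockout and wild type chose them, so it is given as a description with no test. Tests of the members are given for contrasts the choice did not use, the Mlkl knockout against wild type and the diets within a genotype. Genes outside the members, in lists around their roles, are also tested between Ripk3 knockout and wild type. All but the diet tests within the Mlkl knockout share wild-type or Ripk3 knockout libraries with the choice, so their values are not independent of it.

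Liver RNA was sequenced from wild-type (WT), Ripk3KO (Ripk3-/-) and MlklKO (Mlkl-/-) mice, 2 months old when feeding began. For 6 months they were fed normal chow (the control diet) or food without enough choline, either low in fat (CD-LFD) or high in fat (CD-HFD). There were 6 WT libraries on each diet, and on control, CD-LFD and CD-HFD in turn 6, 3 and 4 Ripk3KO and 6, 4 and 3 MlklKO libraries. The strain behind each knockout, its backcrossing and whether the WT mice were littermates are not given in the sources used here. The labels number no animals, so the p-values below measure the spread between these samples, which may in part be technical. Of the 44 libraries, 43 had total counts of 2476268 to 12471844, while the total of WT CD-LFD replicate 3 was 88204703. The 8 hepatocyte markers examined summed to 73380 to 135100 CPM by total count over the libraries. Cell type and granule markers are in CPM by total count, and all other levels are in CPM with library sizes scaled by TMM.

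RIPK3 is a kinase that activates MLKL, which ruptures the plasma membrane in the form of cell death called necroptosis. In a mouse made by targeting a gene in embryonic stem cells and then backcrossed, DNA of the stem cell strain stays longest on the chromosome around the target, so neighbours of a targeted gene can carry other alleles than those of the WT mice. Whether that holds for these mice was not tested, since the files hold no genotypes.

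The products of the 8 genes do unrelated work. Cebpe encodes a C/EBP transcription factor known for the last steps of granulocyte maturation, Homez a protein with homeodomains and a leucine zipper, and Acin1 (acinus) an RNA-binding partner of the splicing machinery that is cut during apoptosis. Psmb5 encodes the constitutive proteasome subunit with chymotrypsin-like activity, Ppp1r3e a subunit that brings protein phosphatase 1 to glycogen, and Ebpl a relative of the sterol isomerase Ebp. Cdh24 is a type II cadherin, which holds cells together through catenins, and Spryd7 is a small protein with a SPRY domain. In the gene order, Psmb5 (44 places), Cdh24 (43), Acin1 (42), Cebpe (39), Homez (37) and Ppp1r3e (36) stand before Ripk3, and Ebpl (46) and Spryd7 (48) after it. All are annotated on the minus strand, as is Ripk3.

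The promoter table of RefSeq (build GRCm38.p6) held 6 of the 8 genes. The 250 bases before the start are shown for these 6, so that members whose Ripk3KO mean lay below WT on all diets (Psmb5, Cdh24, Spryd7, Acin1) can be compared with Homez, higher on CD-HFD, and Ebpl, with a higher mean on all diets. Acin1 has 4 starts in the table, and the first is shown. They are written 5′ to 3′ on the minus strand, with matches to the searched motifs in capitals.
Psmb5 (chr14:54617996-54618245): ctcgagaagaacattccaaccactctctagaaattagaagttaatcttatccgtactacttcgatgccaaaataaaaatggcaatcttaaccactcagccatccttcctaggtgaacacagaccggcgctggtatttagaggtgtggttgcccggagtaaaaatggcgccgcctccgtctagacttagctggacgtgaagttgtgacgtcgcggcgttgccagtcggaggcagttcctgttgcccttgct
Cdh24 (chr14:54641365-54641614): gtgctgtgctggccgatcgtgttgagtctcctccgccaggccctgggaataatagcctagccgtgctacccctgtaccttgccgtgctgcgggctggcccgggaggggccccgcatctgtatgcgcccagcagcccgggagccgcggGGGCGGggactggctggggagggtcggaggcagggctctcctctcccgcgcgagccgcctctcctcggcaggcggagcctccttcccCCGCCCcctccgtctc
Spryd7 (chr14:61556887-61557136): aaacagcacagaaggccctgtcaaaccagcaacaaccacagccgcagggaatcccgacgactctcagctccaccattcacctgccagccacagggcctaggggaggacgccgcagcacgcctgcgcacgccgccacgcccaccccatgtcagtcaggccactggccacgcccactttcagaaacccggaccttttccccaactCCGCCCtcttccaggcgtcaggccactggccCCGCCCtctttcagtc
Acin1 (chr14:54686966-54687215): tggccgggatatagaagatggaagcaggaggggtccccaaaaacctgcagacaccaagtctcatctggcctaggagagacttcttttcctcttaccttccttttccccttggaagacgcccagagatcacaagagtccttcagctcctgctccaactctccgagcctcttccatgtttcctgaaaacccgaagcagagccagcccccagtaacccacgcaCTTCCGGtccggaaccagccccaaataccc
Homez (chr14:54864159-54864408): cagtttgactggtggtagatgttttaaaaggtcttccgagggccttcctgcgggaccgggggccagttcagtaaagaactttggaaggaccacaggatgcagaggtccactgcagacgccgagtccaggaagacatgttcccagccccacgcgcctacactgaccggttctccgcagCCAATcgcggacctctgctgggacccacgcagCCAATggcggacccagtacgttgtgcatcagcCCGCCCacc
Ebpl (chr14:61360446-61360695): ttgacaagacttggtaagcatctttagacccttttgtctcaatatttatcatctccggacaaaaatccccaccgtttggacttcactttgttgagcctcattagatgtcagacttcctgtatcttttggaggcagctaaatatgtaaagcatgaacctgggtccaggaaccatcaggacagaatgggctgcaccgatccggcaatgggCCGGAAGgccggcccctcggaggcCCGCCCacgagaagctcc
The motifs, searched on both strands, were GGGCGG (the GC box, in 32.7% of the 32851 promoters of the table), CCAAT (33.9%), TATAAA (12.4%), CACGTG (6.02%), TGACGTCA (1.55%) and CCGGAAG (6.91%). The Psmb5 window held none of these letters, Cdh24 and Spryd7 each held 2 GC boxes, Acin1 held 1 CCGGAAG, Homez held 1 GC box and 2 CCAAT, and Ebpl held 1 GC box and 1 CCGGAAG. G and C made up 49.6% of the window in Psmb5, 72.8% in Cdh24, 64.8% in Spryd7, 55.2% in Acin1, 60.4% in Homez and 50.8% in Ebpl, against a median of 52.4% over all promoters. A match describes letters and is not a bound site.

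The targeted gene was examined first. Ripk3 was at 0.966, 0.977, 0.511, 1.54, 3.20 and 4.89 CPM in the WT control libraries and at 0, 0, 0.326, 0.315, 1.26 and 0 CPM in the Ripk3KO control libraries. On CD-LFD it was at 2.39 ± 1.26 CPM (SD, n = 6) in WT and held 1 count over 3 Ripk3KO libraries. On CD-HFD it was at 3.08 ± 0.922 CPM (SD, n = 6) in WT and held 2 counts over 4 Ripk3KO libraries. The 1.26 CPM, from 9 counts, belonged to the library labelled Ripk3KO control replicate 5 and lay inside the WT range, so this library goes against its label and results that rest on it are given with and without it.

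Other libraries also stood apart. WT control replicates 5 and 6 had a median correlation of 0.232 and 0.137 with the other libraries of their group (Pearson r of log2 CPM after subtracting each gene's mean), against 0.448 to 0.591 for the other 4. Within the CD-LFD groups these medians ran from 0.183 to 0.466. Mlkl, targeted in the other knockout, was at 1.46 to 3.04 CPM in MlklKO control and 2.28 to 6.15 CPM in WT control, which overlapped, and at 2.98 to 4.16 and 9.85 to 14.5 CPM on CD-LFD. MlklKO libraries held Mlkl reads on every diet, and whether these lie outside the deleted part is not given in the sources used here. In MlklKO CD-HFD Mlkl was at 12.5 CPM in the library labelled replicate 1 and at 4.83 and 2.80 CPM in the others, against 14.3 to 17.7 CPM in WT CD-HFD. The library labelled Ripk3KO control replicate 5, WT control replicates 5 and 6 and the library labelled MlklKO CD-HFD replicate 1 are called the 4 doubtful libraries below.

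Cebpe, the granulocyte factor, was nearly absent from Ripk3KO livers on all 3 diets. On control it was at 11.3, 15.6, 11.6, 10.1, 17.3 and 18.1 CPM in WT and at 0.194, 0.419, 0, 0, 4.47 and 0 CPM in Ripk3KO. The 4.47 CPM was that of the doubtful Ripk3KO control replicate 5, which held 32 of the group's 35 Cebpe counts and still lay below every WT library. On CD-LFD Cebpe ran from 13.8 through a median of 24.7 to 31.2 CPM in WT and was at 0.208, 0 and 0.831 CPM in Ripk3KO. On CD-HFD it ran from 8.77 through 10.9 to 12.3 CPM in WT and was at 0.499, 0.110, 0.0874 and 0.0853 CPM in Ripk3KO. No Ripk3KO library reached the lowest WT library of its diet. By summed counts and scaled depth, Cebpe in Ripk3KO was at 7.73% of WT on control (exact 95% counting interval 5.30 to 10.96), 2.61% on CD-LFD (1.35 to 4.57) and 1.47% on CD-HFD (0.538 to 3.22). With that replicate left out the control share was 0.842% (0.173 to 2.48). On CD-LFD 11 of the 12 Ripk3KO counts came from replicate 3, and the share without it, from 1 count, was 0.519% (0.0131 to 2.90). It was 2.16% (1.11 to 3.79) without the deepest library, WT CD-LFD replicate 3, which held 1612 of the 2449 WT counts. Without Ripk3KO CD-HFD replicate 1, which held 3 of 6 counts, the CD-HFD share was 0.872% (0.179 to 2.56). These intervals take in counting error alone, because the reads carry no molecular identifiers and several can stem from 1 molecule.

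Over the 9 groups the mean of Cebpe was ordered from WT CD-LFD (23.4 CPM) through MlklKO CD-LFD (14.2), WT control (14.02), WT CD-HFD (10.7), MlklKO CD-HFD (8.94) and MlklKO control (5.65) down to Ripk3KO control (0.847), Ripk3KO CD-LFD (0.346) and Ripk3KO CD-HFD (0.196). Each group overlapped its neighbours in that order, MlklKO control and Ripk3KO control doing so through the library labelled Ripk3KO control replicate 5.

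Markers of neutrophils and their precursors were measured beside Cebpe. In the WT groups the primary granule genes Elane, Mpo and Ctsg had medians of at most 0.230, 0.221 and 0 CPM, and the precursor marker Ms4a3 had 1 count in all WT libraries together. Prtn3, also of primary granules, had WT medians of 1.42, 0.251 and 1.997 CPM on control, CD-LFD and CD-HFD. The neutrophil genes S100a8 and S100a9 had WT medians of 0.573 and 0.415 CPM on control, 1.25 and 1.64 CPM on CD-LFD and 2.24 and 3.53 CPM on CD-HFD. Ltf, Camp and Ngp, also granule genes, had medians of 0.107, 0 and 0 CPM in WT control and 0, 0.0629 and 0.0562 CPM in Ripk3KO control. On CD-LFD these were 0.068, 0.045 and 0 CPM in WT and 0, 0.163 and 0 CPM in Ripk3KO. On CD-HFD they were 0.207, 0.1465 and 0.207 CPM in WT and 0.347, 0.800 and 0.543 CPM in Ripk3KO. Their ranges in the 2 genotypes overlapped on every diet. The 14 neutrophil and precursor markers summed to 1.73 to 11.1 CPM in WT control and 1.36 to 37.6 CPM in Ripk3KO control, where Prtn3 alone reached 27.8 CPM. Their sum was 2.94 to 7.06 and 1.34 to 7.99 CPM on CD-LFD, and 7.82 to 18.9 and 7.89 to 20.5 CPM on CD-HFD. The sums of the genotypes overlapped on every diet, while their Cebpe values did not. The part of these cells in the Cebpe values was not tested. In whole liver, fewer cells of a type and less RNA per cell cannot be told apart.

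Psmb5, the proteasome subunit, had a Ripk3KO mean of 41.8% of WT on control, 49.1% on CD-LFD and 33.9% on CD-HFD. On control it was at 85.6, 94.8, 79.2, 165.7, 143.8 and 105.6 CPM in WT and at 53.3, 52.8, 39.1, 49.5, 55.9 and 31.8 CPM in Ripk3KO. On CD-LFD it ran from 77.6 through 92.5 to 109.4 CPM in WT and was at 44.2, 42.0 and 51.8 CPM in Ripk3KO. On CD-HFD it ran from 65.1 through 86.3 to 100.1 CPM in WT and was at 35.5, 28.4, 26.7 and 25.3 CPM in Ripk3KO. Every Ripk3KO library, the one labelled control replicate 5 included, lay below every WT and every MlklKO library of its diet. The log2 difference from WT was -1.25 (SE 0.154), -1.02 (SE 0.193) and -1.56 (SE 0.178). Of the Psmb5 exon bases, 12.1% are shared in GENCODE M21 with a gene on the same strand that has no entry in the count table, and the copy Psmb5-ps held 4 counts over all libraries.

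Ppp1r3e, the glycogen-targeting subunit, was at 5.25, 7.57, 3.92, 8.61, 2.28 and 2.69 CPM in WT control and at 0.583, 0.838, 1.63, 0.788, 4.19 and 0.963 CPM in Ripk3KO control. The 4.19 CPM, again of that doubtful replicate, alone overlapped WT. On CD-LFD Ppp1r3e ran from 3.06 through 4.17 to 4.87 CPM in WT and was at 0.625, 0.211 and 0.907 CPM in Ripk3KO. On CD-HFD it ran from 3.10 through 3.71 to 5.24 CPM in WT and was at 1.33, 0.658, 0.962 and 1.71 CPM in Ripk3KO. The groups did not overlap on either choline deficient diet. The share of WT by counts was 32.7% on control (exact 95% counting interval 23.5 to 44.9), and 19.3% (12.1 to 29.5) without that library. It was 15.4% (8.73 to 25.2) on CD-LFD, where 12 of 16 counts came from Ripk3KO replicate 3 and the share without it was 9.18% (2.49 to 23.6). WT CD-LFD replicate 3 held 424 of the 554 WT counts. The share was 18.5% (10.3 to 31.2) without that WT library and 11.05% (2.97 to 29.0) without both. On CD-HFD it was 29.7% (21.1 to 41.1).

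Cdh24, the cadherin, was free of overlap on CD-HFD alone. There it was at 3.79, 4.51, 3.93, 3.25, 3.14 and 3.82 CPM in WT and at 1.33, 1.76, 0.874 and 0.939 CPM in Ripk3KO, a log2 difference of -1.62 (SE 0.389). On CD-LFD it was at 1.05 and 1.21 CPM in 2 Ripk3KO libraries, below the lowest WT library at 3.26 CPM, and at 3.75 CPM in the other. The control difference of -1.12 (SE 0.405) rested on WT control replicates 5 and 6, at 3.65 and 6.84 CPM against 0.489 to 1.53 CPM in the other 4, and was -0.09 without them. Counts of Cdh24 were few, from 2 to 70 per library outside the deepest one.

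Spryd7 was lower by a smaller margin. On CD-LFD it was at 15.6, 16.9 and 16.8 CPM in Ripk3KO, below all WT libraries, which ran from 17.6 through 22.5 to 27.1 CPM. On control it ran from 12.9 through 16.4 to 18.2 CPM in Ripk3KO and from 14.9 through 25.6 to 28.3 CPM in WT, and 2 of 6 Ripk3KO libraries lay below the lowest WT library. With the 4 doubtful libraries set aside the control groups did not overlap. On CD-HFD 3 of 4 Ripk3KO libraries lay below the lowest WT library, at a log2 difference of -0.38 (SE 0.158).

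Acin1, the splicing partner, was below WT on both choline deficient diets but within the range of the other knockout. On CD-LFD it was at 146.2, 155, 110.8, 140.8, 198.7 and 218 CPM in WT, at 107.3, 108.8 and 107.6 CPM in Ripk3KO and at 118, 89.6, 112 and 109 CPM in MlklKO. On CD-HFD it ran from 124.9 through 136.1 to 198.6 CPM in WT, from 97.7 to 112 CPM in Ripk3KO, and was at 101.3, 145.2 and 96.9 CPM in MlklKO. The log2 difference of Ripk3KO from WT was -0.58 (SE 0.242) and -0.46 (SE 0.217), and that from MlklKO was 0.01 and -0.12. On control the difference from WT was -0.36, and it was 0.23 without WT control replicates 5 and 6, which held 217.7 and 231 CPM against 83.3 to 94.0 CPM in the other 4. Of the Acin1 exon bases 4.40% overlap 1700123O20Rik on the opposite strand, and whether the counting used strand is not given in the sources used here.

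Homez and Ebpl ran the other way. Homez was at 1.49, 1.95, 1.31, 2.38, 2.34 and 1.75 CPM in WT CD-HFD and at 5.33, 3.95, 5.33 and 5.03 CPM in Ripk3KO CD-HFD, with no overlap and a log2 difference of 1.38 (SE 0.267). On control and CD-LFD its differences were -0.10 (SE 0.258) and -0.08 (SE 0.325), and the groups overlapped. Ebpl overlapped on every diet. Its Ripk3KO mean was 136% of WT on control, 147% on CD-LFD and 130.5% on CD-HFD, and 3 of 6, 2 of 3 and 0 of 4 libraries lay above the highest WT library. Against MlklKO, 5 of 6, 3 of 3 and 4 of 4 Ripk3KO libraries lay above the highest value.

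**Figure D1:**
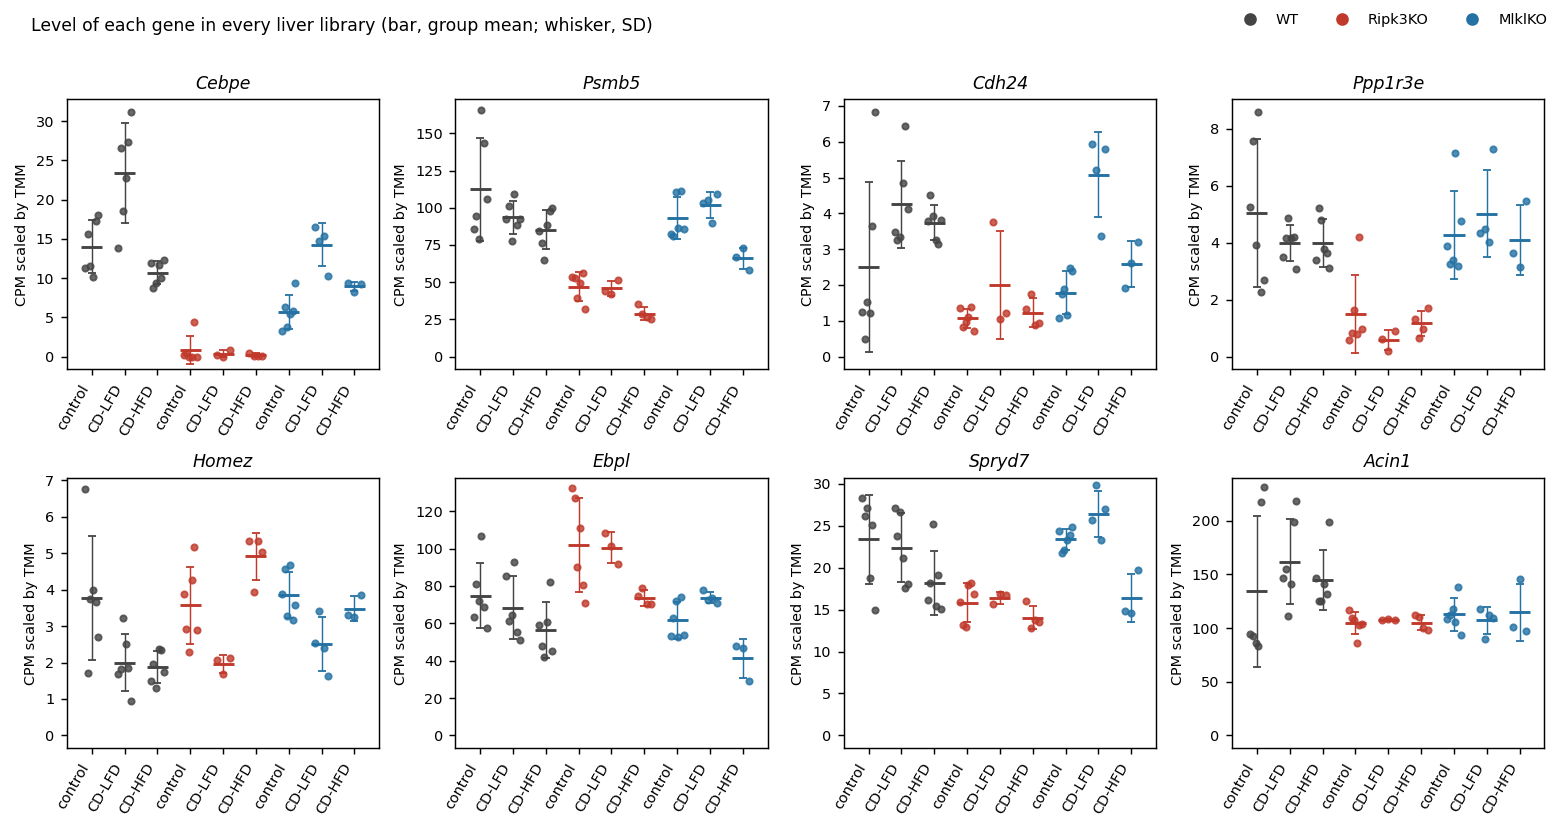
Level of each of the 8 genes in CPM scaled by TMM (vertical axis) in every library, by diet (horizontal axis) and genotype (colour). Points are libraries, bars group means and whiskers SD. Cebpe and Psmb5 of Ripk3KO lie below all WT libraries on every diet, while Acin1 of Ripk3KO lies among the MlklKO values on both choline deficient diets.

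Of the 8 members, Ripk3KO and WT did not overlap for 2 on control, 5 on CD-LFD and 6 on CD-HFD, against 0.922%, 7.89% and 5.36% of all tested genes. Separation in one direction was seen for 7 members on at least 1 diet, for Cebpe, Psmb5, Ppp1r3e and Acin1 on at least 2, and for Cebpe and Psmb5 on all 3. Over all tested genes the shares were 12.6%, 1.43% and 0.101%. The members were chosen on this contrast, so nothing is read from these counts.

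Another 9 of the 100 genes separated on at least 1 diet, against 12.6% of all tested genes. Of the 70 tested genes within 35 places, 6 separated on 1 diet and 0 on 2 or more. Over all tested genes 12.6% separated on at least 1 diet and 1.43% on at least 2, so nothing is read from these small counts. The neighbours Adcy4 and Ltb4r1 before Ripk3 and Nfatc4 and Nynrin after it overlapped on every diet, with log2 differences between -1.02 and 0.74. Just outside the limit, Gm43305 at 54 places before Ripk3 was at 25.9 ± 14.9 CPM (SD, n = 6) in WT and 0.524 ± 0.732 CPM (SD, n = 3) in Ripk3KO on CD-LFD, without overlap. On CD-HFD it was at 50.8 ± 42.0 CPM (SD, n = 6) and 2.42 ± 2.72 CPM (SD, n = 4), again without overlap. Abhd4 at 55 places before Ripk3 was higher without overlap on the same diets (log2 differences 0.35 and 0.33), and Kcnrg at 51 places after it was lower without overlap on control (-1.59). Just inside, Spryd7 at 48 places had the values given above.

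**Figure D2:**
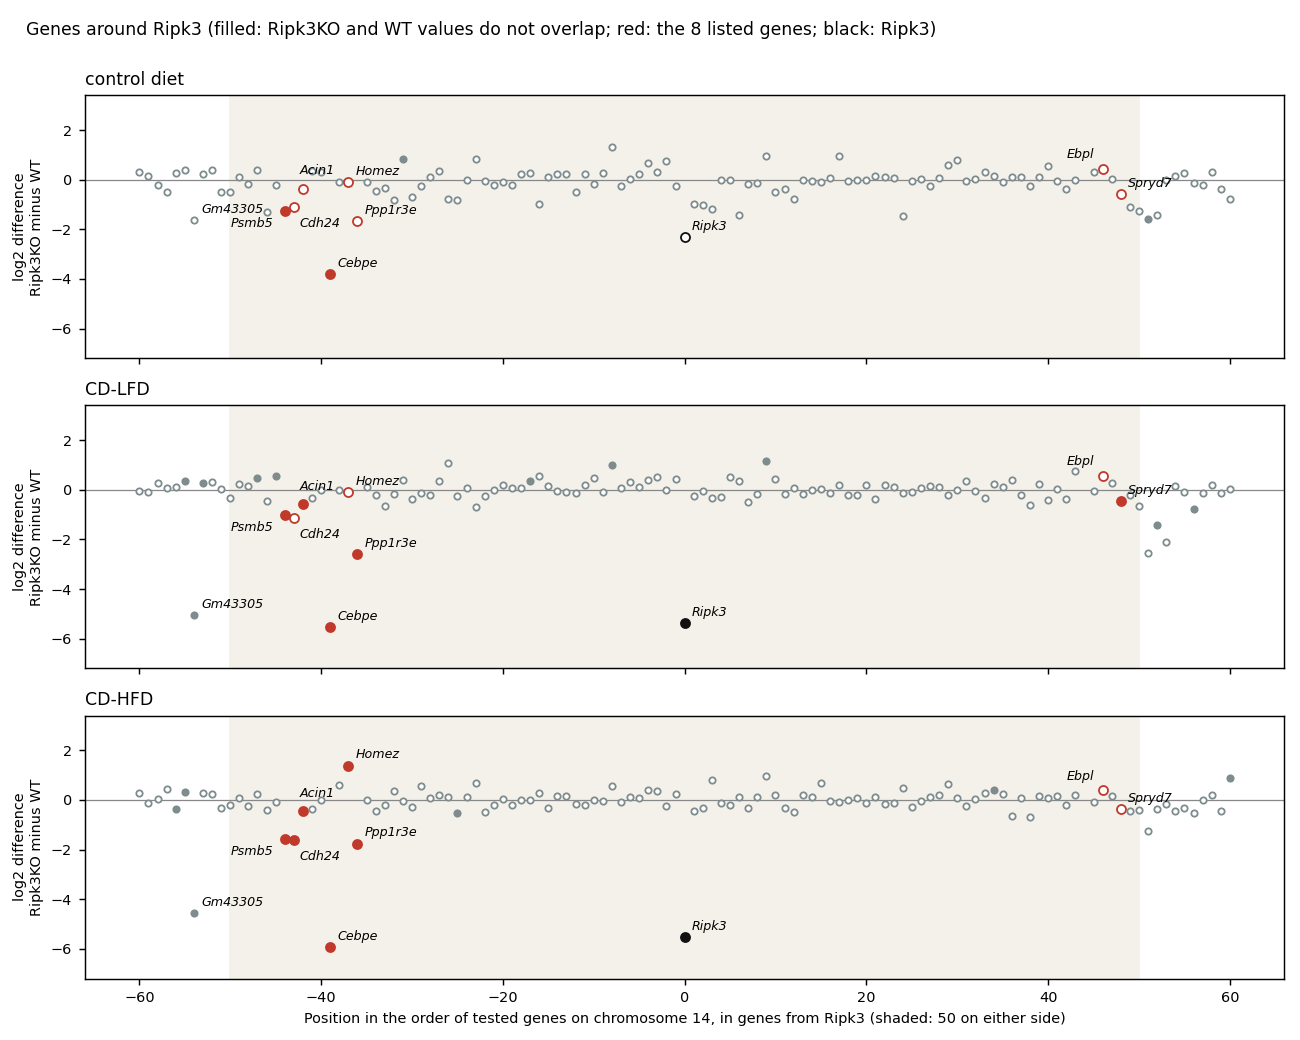
Log2 difference of Ripk3KO from WT (vertical axis) for tested genes around Ripk3, by place in the gene order on chromosome 14 (horizontal axis, in genes from Ripk3), 1 panel per diet. Filled points are genes whose Ripk3KO and WT values do not overlap, red points the 8 listed genes and the black point Ripk3, and 1 gene is not shown. The listed genes stand 36 to 44 places before and 46 and 48 places after Ripk3.

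For the other knockout the same count was made around Mlkl. Of the 100 tested genes within 50 places of Mlkl, 1 separated MlklKO from WT in one direction on at least 2 diets, against 1.32% of all tested genes. That gene was Zfhx3, a homeobox transcription factor, with log2 differences of -0.46, -0.78 and -0.46 on control, CD-LFD and CD-HFD and adjusted p of 0.164, 0.124 and 0.629 by edgeR. Of the 100 genes around Ripk3, 0 separated MlklKO from WT on at least 2 diets.

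The library labelled Ripk3KO control replicate 5 stood clear of the other 5 in some members only. In Cebpe it was at 4.47 CPM against at most 0.419 in the others, in Ppp1r3e at 4.19 against at most 1.63, and in Homez at 5.17 against at most 4.25. In Psmb5 (55.9 against at most 53.3), Cdh24 (1.397 against at most 1.36) and Spryd7 (18.2 against at most 18.0) it lay just above them, and its Psmb5 was still below the lowest WT value of 79.2 CPM. Its Ebpl and Acin1, at 80.3 and 103.1 CPM, lay inside the range of the others.

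**Figure D3:**
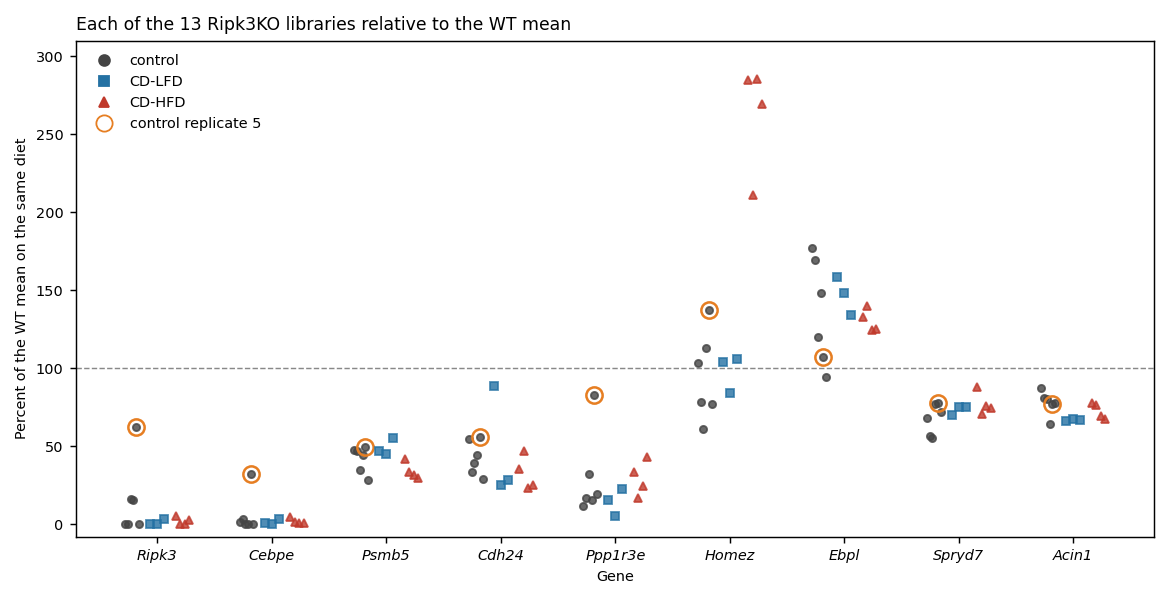
Level in each of the 13 Ripk3KO libraries as a percentage of the WT mean on the same diet (vertical axis), for Ripk3 and the 8 genes (horizontal axis). Marker shape and colour give the diet. The circled library, control replicate 5, lies at 62.5% for Ripk3 and 31.9% for Cebpe, above the other Ripk3KO libraries, and at 49.7% for Psmb5 among them.

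MlklKO was set against WT with edgeR's quasi-likelihood test, with Benjamini-Hochberg adjustment over all 14862 genes and calls at an adjusted p under 0.05. These comparisons share their WT libraries with the Ripk3KO values that chose the members. On control 1 of 8 members was called, against 27.1% of all genes called and 14.1% called lower. That member was Cebpe, at 3.23, 6.30, 3.77, 5.40, 5.80 and 9.40 CPM in MlklKO, all below the lowest WT value of 10.1 CPM. Its log2 difference was -1.29 (SE 0.374, adjusted p 0.00892 by edgeR), and adjusted p ran from 0.00315 to 0.0488 over 20 alternatives. The sum of the neutrophil and precursor markers on control had a median of 12.5 CPM in MlklKO and 2.92 CPM in WT, with overlapping ranges. Its part in the Cebpe values was not tested.

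On CD-LFD 0 of 8 members were called between MlklKO and WT by edgeR or DESeq2, 1 had an unadjusted p under 0.05, and 2.56% of all genes were called. The 1 was Acin1, with a log2 difference of -0.59 (SE 0.218, adjusted p 0.148 by edgeR), which was -0.86 with an adjusted p of 0.032 when libraries were scaled by total count alone. Cebpe was at 16.5, 14.8, 15.4 and 10.3 CPM in MlklKO CD-LFD, a log2 difference of -0.71 (SE 0.383, adjusted p 0.374 by edgeR). Psmb5 was at 102.9, 105.4, 89.8 and 109.5 CPM, a difference of 0.12 with a 95% interval of -0.20 to 0.45, which was -0.11 with scaling by total count.

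On CD-HFD 0 of 8 members were called by edgeR or DESeq2, 2 had an unadjusted p under 0.05, and 0.0% of all genes were called. Those 2 were Homez and Ebpl. Homez was at 3.31, 3.26 and 3.87 CPM in MlklKO, all above the highest WT value of 2.38 CPM, with a log2 difference of 0.88 (SE 0.303, adjusted p 0.568 by edgeR). Ebpl was at 48.1, 46.7 and 29.3 CPM in MlklKO, a difference of -0.45 (SE 0.211, adjusted p 0.587 by edgeR). Psmb5 was at 67.0, 72.7 and 58.1 CPM there, a difference of -0.37 with a 95% interval of -0.74 to -0.01 and an adjusted p of 0.587 by edgeR.

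A ratio of 2 clock genes set WT apart from both knockouts on CD-LFD. The log2 ratio of Arntl to Dbp, whose levels peak at opposite times of day, was -2.66 to -0.28 in WT, -7.33 to -6.10 in Ripk3KO and -7.05 to -5.85 in MlklKO, a measure chosen after its values were seen. On control it was -7.88 to 2.69 in WT, -7.40 to -5.68 in Ripk3KO and -4.96 to -3.67 in MlklKO, and on CD-HFD -6.24 to -2.12, -6.27 to -5.57 and -6.10 to -5.19. Its part in the members' values was not tested.

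Within WT, 4 of 8 members were called lower on CD-HFD than on control by edgeR, against 47.7% of all genes called and 24.1% called lower. The WT and Ripk3KO libraries compared here and below also entered the choice of members, and low Homez in WT CD-HFD is part of what set Homez apart. From control to CD-HFD, WT median marker sums rose for monocyte-derived macrophages (51.7 to 1736 CPM) and stellate cells (27.2 to 300). They also rose for cholangiocytes (16.8 to 124), lymphocytes (3.10 to 18.4) and neutrophils (2.92 to 12.75). They fell for hepatocytes (112600 to 84070), erythroid cells (173 to 87.6), endothelial cells (117 to 93.1) and Kupffer cells (138 to 114). The part of these cells in the members' diet differences was not tested. Homez fell from 3.76 ± 1.70 to 1.87 ± 0.437 CPM (SD, n = 6 and 6), a log2 difference of -1.03 (SE 0.261, adjusted p 0.00116 by edgeR). Psmb5 (-0.39, SE 0.150, adjusted p 0.0290), Spryd7 (-0.37, SE 0.141, adjusted p 0.0302) and Ebpl (-0.41, SE 0.170, adjusted p 0.0443) fell by edgeR, but came to 0.11, 0.13 and 0.08 when libraries were scaled by total count alone, where the median of all genes moved from -0.066 to 0.427. Their groups overlapped, and DESeq2 called none of the 3 (adjusted p 0.0814, 0.053 and 0.0953). Nor were they called with RLE scaling, with no filter or in a fit of the compared groups alone, where adjusted p ran from 0.0647 to 0.193. Psmb5 also lost its call without any 1 of WT control replicates 4 and 5 and WT CD-HFD replicates 2 and 3, with adjusted p up to 0.163. Ebpl lost it without any 1 of WT control replicates 2, 3 and 4 and WT CD-HFD replicates 1, 2, 3 and 6 (up to 0.178), and Spryd7 without any 1 of WT control replicates 1, 2 and 3 and WT CD-HFD replicates 1, 4 and 6 (up to 0.0969). Homez kept its call in all of these, and was at -0.55 with an adjusted p of 0.0679 with scaling by total count. With that scaling the members called were Cdh24 (1.11, adjusted p 0.011 by edgeR) and Acin1 (0.59, adjusted p 0.0217), both higher. With WT control replicates 5 and 6 set aside these were higher too, at 1.68 (adjusted p 5.68e-05 by edgeR) and 0.70 (adjusted p 0.000169), against 0.64 and 0.11 with them, while Psmb5 was no longer called (-0.31, adjusted p 0.1). Without WT control replicate 6 alone Cdh24 was at 1.33 (adjusted p 0.000823 by edgeR).

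In Ripk3KO, 3 of 8 members were called lower on CD-HFD by edgeR, against 46.3% of all genes called and 21.7% called lower. Psmb5 fell from 47.0 ± 9.51 (SD, n = 6) to 29.0 ± 4.53 CPM (SD, n = 4), a log2 difference of -0.71 (SE 0.174, adjusted p 0.000928 by edgeR) that was -0.17 with scaling by total count. Ebpl fell by 0.47 on the log2 scale (SE 0.190, adjusted p 0.0387 by edgeR), came to 0.06 with that scaling, and was not called by DESeq2 (adjusted p 0.0796), with RLE scaling (0.0891), with no filter (0.107) or in the compared groups alone (0.0645). Its call was also lost without any 1 of Ripk3KO control replicates 1, 2 and 4 or of the Ripk3KO CD-HFD replicates (adjusted p up to 0.0984). Cebpe was called at -2.52 (SE 0.867, adjusted p 0.0156 by edgeR), but its value was 0.44 with an adjusted p of 0.735 without the doubtful Ripk3KO control replicate 5. Without Ripk3KO CD-HFD replicate 3 or 5 its adjusted p was 0.0502 and 0.0524. With scaling by total count none of these 3 was called, and Homez (0.98, adjusted p 0.00162 by edgeR, against 0.44 and 0.172 by TMM) and Spryd7 (0.36, adjusted p 0.0458) were called higher.

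In MlklKO, 3 of 8 members were called lower on CD-HFD by edgeR, against 45.2% of all genes called and 20.3% called lower. They were Psmb5 (-0.50, SE 0.188, adjusted p 0.0283), Ebpl (-0.57, SE 0.213, adjusted p 0.0251) and Spryd7 (-0.51, SE 0.176, adjusted p 0.0159), and they came to 0.03, -0.05 and 0.02 with scaling by total count, where the median of all genes moved from -0.04 to 0.488. None of the 3 was called with that scaling, and Cebpe was called higher (1.18, adjusted p 0.0331 by edgeR, against 0.65 and 0.23 by TMM). For all 3 every MlklKO CD-HFD library lay below every MlklKO control library, but the share of all genes doing so was not counted, so nothing is read from this. Psmb5 lost its call without any 1 of MlklKO control replicates 3 and 5 and MlklKO CD-HFD replicates 1 and 4 (adjusted p up to 0.12). Ebpl lost it without MlklKO control replicate 5 or MlklKO CD-HFD replicate 4 (up to 0.182), and Spryd7 without MlklKO CD-HFD replicate 1 or 2 (up to 0.0587). In a fit of the compared groups alone all 3 lost the call (0.0639, 0.061 and 0.0559 by edgeR). Psmb5 also lost it by DESeq2 (0.0603), with RLE scaling (0.074) and with no filter (0.0626), and Spryd7 with no filter (0.0565).

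On CD-LFD, in WT 1 of 8 members, Homez, was lower at 2.00 ± 0.783 CPM (SD, n = 6), against 27.7% of all genes called. Its log2 difference was -0.87 (SE 0.258, adjusted p 0.00997 by edgeR), and -0.57 with an adjusted p of 0.608 without WT control replicate 1. The call was also lost with no filter on low counts (0.0587), in a fit of the compared groups alone (0.107) and with scaling by total count (0.0598). In Ripk3KO 0 of 8 were called by edgeR or DESeq2, 2 (Homez and Ppp1r3e) had an unadjusted p under 0.05, and 24.1% of all genes were called. Homez there was at -0.86 (SE 0.330, adjusted p 0.0525 by edgeR), and was called without Ripk3KO control replicate 2 or 3 (0.0453 and 0.0362). Ppp1r3e was at -1.24 (SE 0.527, adjusted p 0.0777 by edgeR), and was called without Ripk3KO control replicate 1 (0.0414). Without the doubtful Ripk3KO control replicate 5 it was at -0.55 (0.444), and without Ripk3KO CD-LFD replicate 3 at -1.89, not called.

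In MlklKO, 2 of 8 members rose on CD-LFD, against 37.9% of all genes called and 19.7% called higher. Cebpe rose from 5.65 ± 2.19 (SD, n = 6) to 14.2 ± 2.74 CPM (SD, n = 4), a log2 difference of 1.33 (SE 0.395, adjusted p 0.00784 by edgeR). The 14 neutrophil and precursor markers summed to 3.60 to 17.2 CPM (median 12.5) in MlklKO control. On CD-LFD their MlklKO sum was 2.41 to 5.26 CPM (median 3.6), and their part in the Cebpe rise was not tested. Cdh24 rose from 1.79 ± 0.591 (SD, n = 6) to 5.08 ± 1.19 CPM (SD, n = 4), a difference of 1.49 (SE 0.363, adjusted p 0.00153 by edgeR). Neither gene overlapped between the diets, but the share of all genes without overlap was not counted here. Both were called in each of 16 alternatives, with adjusted p up to 0.0286 and 0.00818.

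**Figure D4:**
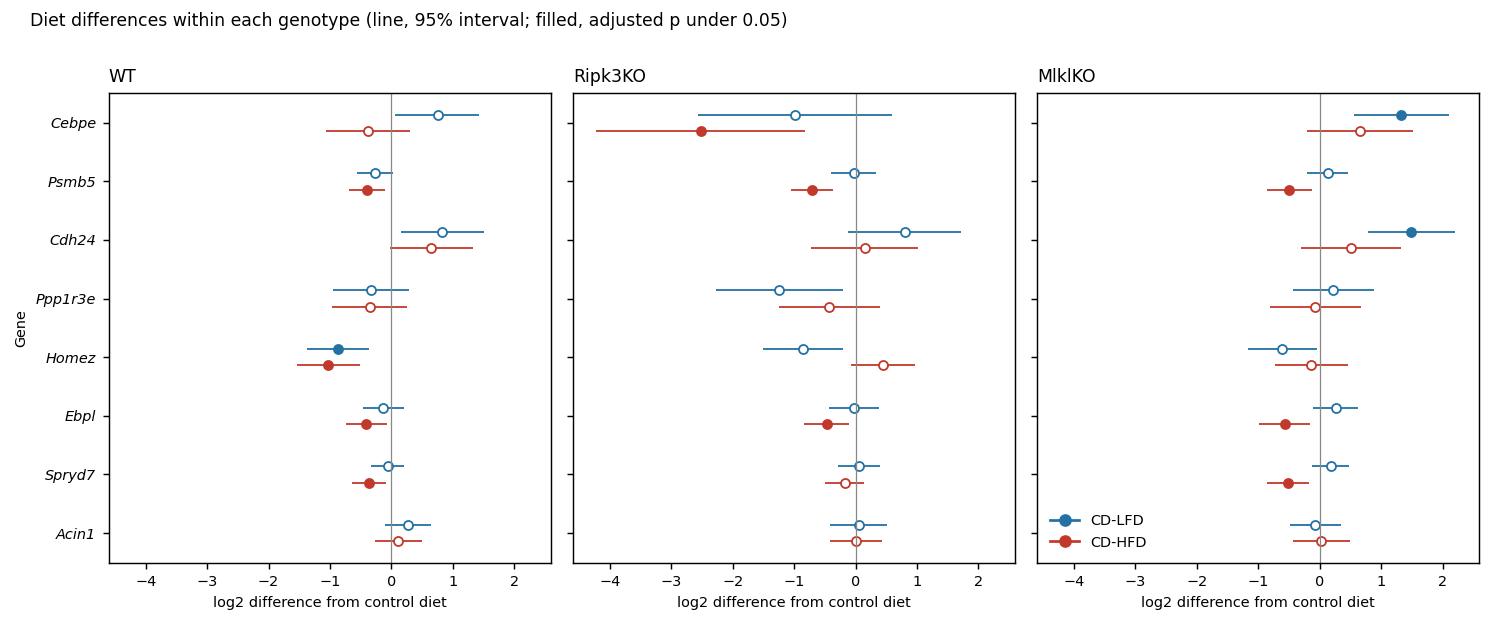
Log2 difference of each choline deficient diet from control (horizontal axis) for the 8 genes (vertical axis), 1 panel per genotype and 1 colour per diet. Lines are 95% intervals and filled points have an adjusted p under 0.05. The filled CD-HFD points lie below 0, where most turn with scaling by total count, and the filled CD-LFD points of MlklKO, Cebpe and Cdh24, lie above it.

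In WT the CD-LFD differences of Cebpe and Cdh24 were 0.75 (SE 0.348, adjusted p 0.105 by edgeR) and 0.82 (SE 0.345, adjusted p 0.0690), and with scaling by total count 1.07 (0.0233) and 1.11 (0.0187). Cdh24 was also called by DESeq2 (0.85) and by edgeR without any 1 of WT control replicates 5 and 6 and WT CD-LFD replicate 3 (0.93, 1.51 and 0.92), and Cebpe in a fit of the compared groups alone (0.79). With WT control replicates 5 and 6 set aside they were 0.94 (adjusted p 0.0476 by edgeR) and 1.86 (adjusted p 3.63e-05), and Acin1 was at 0.86 (adjusted p 2.92e-05) against 0.27 with them (0.59 and 0.0368 with scaling by total count). The diet difference was also compared between MlklKO and WT as an interaction. By edgeR and DESeq2 0 of 8 members were called in either interaction, against 4.12% of all genes for CD-HFD and 8.45% for CD-LFD, and 1 (Homez) and 0 had an unadjusted p under 0.05. The Homez interaction on CD-HFD was 0.89 with a 95% interval of 0.11 to 1.67 and an adjusted p of 0.206 by edgeR. With WT control replicates 5 and 6 set aside, Acin1 was called on CD-LFD at -0.93 (adjusted p 0.00395 by edgeR).

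Gene lists around the members' roles were examined for their other genes, between Ripk3KO and WT, where 4.47%, 1.1% and 0.377% of all genes were called on control, CD-LFD and CD-HFD. Of 16 other tested subunits of the proteasome core, 0 were called on any diet by edgeR, 3, 0 and 0 had an unadjusted p under 0.05, and DESeq2 called 1 on control. Their median log2 differences were -0.04, 0.20 and -0.02, beside -1.25, -1.02 and -1.56 for Psmb5. Psmb5 was chosen on this contrast, so its distance from the other subunits is fixed in part by that choice and nothing is read from it. Of 26 genes of the caps and assembly factors, 0 were called by edgeR or DESeq2, and 2, 0 and 0 had an unadjusted p under 0.05. With scaling by total count, where the median of all genes was -0.158 on control, 1 core subunit and 1 cap or assembly gene were called lower there by edgeR. On CD-HFD against control in WT, where 47.7% of all genes were called and 24.1% called lower, the core subunits were 9 lower and 3 higher of 16, 7 lower and 3 higher without the 4 doubtful libraries, and 0 lower and 4 higher with scaling by total count. Psma3, a structural subunit, was lower (-0.77, SE 0.125, adjusted p 2.47e-06 by edgeR), and at -0.26 (adjusted p 0.0527) with that scaling. Psmb8, which takes the place of Psmb5 in the immunoproteasome, was higher (1.0, SE 0.154, adjusted p 9.34e-07 by edgeR), as was the immunoproteasome subunit Psmb9 (1.06, SE 0.204, adjusted p 4.02e-05), and both stayed higher with that scaling (1.49 and 1.54).

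Of 6 other C/EBP genes, 2 were higher in Ripk3KO on control by edgeR, Cebpb (0.94, SE 0.190, adjusted p 0.00187) and Cebpd (1.35, SE 0.230, adjusted p 0.000236), both known from the acute-phase response. They were also higher in MlklKO on control (1.03 and 1.80, adjusted p 9.59e-05 and 3.08e-07 by edgeR), and both stayed called in Ripk3KO with the 4 doubtful libraries set aside (1.12 and 1.32, adjusted p 0.00234 and 0.00352). Ddit3, the stress-induced C/EBP relative, was lower in Ripk3KO on CD-LFD (-1.44, SE 0.381, adjusted p 0.0474 by edgeR) and CD-HFD (-1.66, SE 0.343, adjusted p 0.0144). Of 19 granule and neutrophil genes 7 were tested. On control 3 were higher in Ripk3KO by edgeR, Lcn2 (7.01, adjusted p 1.19e-06), Prtn3 (3.27, adjusted p 0.00246) and Cxcr2 (3.25, adjusted p 0.0473). With the 4 doubtful libraries set aside Lcn2 stayed called (6.92, adjusted p 0.000189 by edgeR), while Prtn3 (2.76, adjusted p 0.0565) and Cxcr2 (5.61, adjusted p 0.0813) were not, Cxcr2 also missing the threshold with RLE or total-count scaling (0.0508 and 0.054). Lcn2 and Cxcr2 were higher in MlklKO on control too (7.08 and 3.25, adjusted p 2.58e-07 and 0.0122 by edgeR). On the choline deficient diets 0 were called by edgeR or DESeq2, and 0 had an unadjusted p under 0.05. Prtn3 in Ripk3KO control ran from 0.341 through 3.17 to 27.8 CPM, and Lcn2 is also made by hepatocytes.

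Of 15 other tested genes of glycogen targeting and metabolism, Ppp1r3c was lower in Ripk3KO on control (-2.03, SE 0.391, adjusted p 0.00112 by edgeR), and at -2.13 (adjusted p 0.00454) with the 4 doubtful libraries set aside. It was lower in MlklKO on control too (-1.99, SE 0.388, adjusted p 0.000181 by edgeR), where Ppp1r3e differed by -0.25 (SE 0.318, adjusted p 0.597). On CD-LFD Ppp1r3b was lower (-1.46, SE 0.365, adjusted p 0.0318 by edgeR) and the liver glycogen synthase Gys2 higher (1.23, SE 0.287, adjusted p 0.0187), and Gys2 was higher in MlklKO on CD-LFD too (1.47, SE 0.267, adjusted p 0.000692 by edgeR). On CD-HFD 0 were called by edgeR or DESeq2 and 3 had an unadjusted p under 0.05.

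Among 11 other sterol synthesis genes 0 were called on any diet by edgeR or DESeq2, and 1, 0 and 2 had an unadjusted p under 0.05. In WT on CD-HFD against control, where 47.7% of all genes were called and 24.1% called lower, the same genes were 10 lower and 0 higher of 11, and 6 lower and 0 higher with scaling by total count. Among 10 exon junction and acinus partner genes 0 were called by edgeR, 2, 2 and 1 had an unadjusted p under 0.05, and on control DESeq2 called 1 and edgeR with scaling by total count 1 (lower). The homeobox relatives Zhx1, Zhx2 and Zhx3 were not called by edgeR or DESeq2, and 0 had an unadjusted p under 0.05. In WT on CD-HFD all 3 were lower by edgeR (-0.96, -0.67 and -0.93), as Homez was, and Zhx3 alone stayed called with scaling by total count (-0.45, -0.15 and -0.42). Of 9 other cadherins and catenins Jup, a catenin, was higher on control (0.47, SE 0.130, adjusted p 0.0281 by edgeR), and was not called with the 4 doubtful libraries set aside (0.32, adjusted p 0.225) or with scaling by total count (0.34, adjusted p 0.0952). Without those libraries Cdh1, the cadherin of epithelia and named after its values were seen, was lower (-1.43, adjusted p 0.0219, against -1.04 and 0.0523 with them). In this list 0 were called on the other diets by edgeR, where DESeq2 called 1 on CD-LFD and 1 had an unadjusted p under 0.05 on each. Of 6 other necroptosis genes Casp8 (0.53), Ripk1 (0.69) and Tnfrsf1a (1.11) were higher on control (adjusted p 0.0223, 0.0302 and 0.00247 by edgeR). Casp8 and Ripk1 also missed the threshold with scaling by total count (0.40 and 0.56, adjusted p 0.073 and 0.0646 by edgeR). All 3 lost the call with the 4 doubtful libraries set aside (0.50, 0.55 and 0.88, adjusted p 0.121, 0.208 and 0.0742), and all 3 were higher in MlklKO on control (0.79, 0.81 and 1.88, adjusted p 6.59e-05, 0.00187 and 2.49e-07 by edgeR). On CD-LFD and CD-HFD 0 were called by edgeR or DESeq2, and 0 and 2 had an unadjusted p under 0.05.

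Over the 44 libraries, with log2 CPM centred on each diet, the genes most like Cebpe were Ripk3 (Pearson r 0.901) and Psmb5 (0.895). Psmb5 was most like Cebpe and then Ripk3 (0.875), Ppp1r3e like Cebpe (0.869) and Gm43305 (0.784), and Spryd7 like Ppp1r3e (0.688). The other 4 members were most like genes on other chromosomes, Cdh24 like Dnase1l2 (0.771), Ebpl like Asgr1 (0.889), Acin1 like Stx16 (0.916) and Homez like Itpripl1 (0.585). The libraries share genotype, diet and depth, so these values describe a pattern. The centring leaves in the difference between Ripk3KO and WT that chose the members, so likeness to Ripk3 and among members is fixed in part by that choice.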

How the data were processed

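Liver RNA of 44 samples was measured by RNA-seq. The deposited file holds raw read counts per gene made by the authors, and FastQC, STAR, HTSeq, edgeR and limma with build GRCm39 (mm39) are named per the submitters' processing notes, with settings not given in the sources used here. Of 35249 gene IDs, 34373 matched a symbol and a place in the GENCODE M21 order, which gave the places from Ripk3. Distances in bases are not given, since the reference at hand is of another build.

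The members and the gene lists were chosen with earlier results of these data known. Genes passing edgeR's filterByExpr (minimum count 10) were tested, 14862 in all, holding 99.85% of counts. All 44 libraries entered 1 fit with a mean per group (R 4.3.3, edgeR 4.0.16, TMM factors 0.799 to 1.34, quasi-likelihood test, Benjamini-Hochberg adjustment, threshold 0.05). Genes outside the members were named where they were among the 2 highest or 2 lowest called in a list and comparison, stood just outside the limit, or were the 2 most alike. The 95% intervals of log2 differences come from their SE on a normal scale. Alternatives were DESeq2 1.42.0, RLE or total-count scaling, no filter, only the compared groups, a replicate block and leaving out each library, and, chosen after seeing the data, setting aside the doubtful libraries. For WT CD-HFD against control the fit was also run on simulated counts with known changes, and its outcome is not given here. 1 gene near Ripk3 is not reported here. Replicate numbers were not taken as pairs in the main fit, since the labels number no animals.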

Additional observations from a re-analysis of the deposited data

Results flagged for a closer look

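Each of the 8 members was examined in each group of 4 to 10 libraries, and in 5 of these 56 combinations (8.93%) 1 library lay far from the others by Dixon's criterion, which chance alone meets in about 1 in 20. The 5 are not independent, since 2 come from 1 library. Cebpe was at 4.47 CPM in the library labelled Ripk3KO control replicate 5 (32 counts), with the others at 0 to 0.419 CPM, and Ppp1r3e was at 4.19 CPM in the same library, with the others at 0.583 to 1.63 CPM. Cebpe was at 0.499 CPM in Ripk3KO CD-HFD replicate 1, from 3 counts, with the others at 0.0853 to 0.11 CPM. Ppp1r3e was at 7.3 CPM in MlklKO CD-LFD replicate 4, with the others at 4.01 to 4.47 CPM. Acin1 was at 199 CPM in WT CD-HFD replicate 6, with the others at 125 to 147 CPM.

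For 2 genes every library of CD-HFD lay on one side of its genotype's control mean in one genotype and on the opposite side in another, though most of these differences were not called. Other differences of opposite sign did not meet this criterion. The mean log2 level of Cebpe on CD-HFD minus control was 0.72 in MlklKO and -0.36 in WT, and that of Homez was 0.47 in Ripk3KO and -0.85 in WT. These differences of means were not tested as such, and by edgeR the CD-HFD differences were not called for Cebpe in MlklKO (adjusted p 0.23) or WT (0.391) or for Homez in Ripk3KO (0.172). With scaling by total count Cebpe in MlklKO (1.18, adjusted p 0.0331 by edgeR) and Homez in Ripk3KO (0.98, adjusted p 0.00162) were called. In the gene-wise fit the Cebpe interaction was 1.03 with an adjusted p of 0.325 by edgeR, and that of Homez comes from the contrast that chose it.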

How the results depend on the processing

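The number of the 8 members called changed with the processing in most diet comparisons. For WT CD-HFD against control it was 4, with 1 by RLE scaling, no filter, the compared groups alone or DESeq2, 2 others (higher) with total-count scaling, 5 and 6 (2 of them higher) with the WT control replicates or all 4 doubtful libraries set aside, and 2 to 5 when leaving out 1 library. For WT CD-LFD it was 1, with 0 without the filter, 3 others (higher) with total-count scaling, 2 by DESeq2, 4 with either set of libraries aside (3 of them higher), and 0 to 3 when leaving out 1 library. For Ripk3KO CD-HFD it was 3, with 1 in the compared groups alone, 2 by RLE, no filter, DESeq2 or the libraries aside, 2 with total-count scaling (higher, neither among the 3), and 1 to 3 when leaving out 1. For Ripk3KO CD-LFD it was 0, and 0 to 1 when leaving out 1. For MlklKO CD-HFD it was 3, with 0 in the compared groups alone, 1 with no filter, 1 with total-count scaling (higher, not among the 3), 2 by RLE or DESeq2, and 1 to 3 when leaving out 1. MlklKO CD-LFD stayed at 2 and MlklKO against WT on control at 1 in every alternative run. MlklKO against WT on CD-LFD went from 0 to 1 with total-count scaling, and the CD-LFD interaction from 0 to 1 (Acin1, -0.93, and -0.96 with all 4 aside) with the libraries aside. The cause of these changes was not tested.

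With total-count scaling values called by either scaling turned sign for Psmb5 (0.11), Ebpl (0.08) and Spryd7 (0.13) in WT CD-HFD, Ebpl (0.06) and Spryd7 (0.36) in Ripk3KO CD-HFD, and Psmb5 (0.03) and Spryd7 (0.02) in MlklKO CD-HFD. Values called by neither turned for Cebpe (0.11) and Ppp1r3e (0.15) in WT CD-HFD, Psmb5 (0.05), Ebpl (0.17) and Spryd7 (0.23) in WT CD-LFD, Ppp1r3e (0.10) in Ripk3KO CD-HFD, Psmb5 (0.29) and Ebpl (0.29) in Ripk3KO CD-LFD, Ppp1r3e (0.47) and Homez (0.39) in MlklKO CD-HFD, Acin1 (0.07) in MlklKO CD-LFD, and Psmb5 (-0.11) and Ebpl (-0.10) in MlklKO against WT on CD-LFD. Cebpe in Ripk3KO CD-HFD ran from -3.22 to 0.44 when leaving out 1 library, the last without Ripk3KO control replicate 5, and was 0.46 without all 4. Of the untested differences between Ripk3KO and WT, Cebpe moved to -6.77 on control without that library, -7.64 on CD-LFD without replicate 3 and -6.64 on CD-HFD without replicate 1. Ppp1r3e moved to -2.66 on control without all 4 and -3.25 on CD-LFD without replicate 3, and Cdh24 to -1.86 on CD-LFD without replicate 1.

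The replicate block was fitted as an alternative only, since the labels number no animals. Deviations of same-numbered libraries had a median r of -0.0114 over 146 pairs, from -0.349 to 0.545. A median cannot settle whether some groups are paired. With the replicate block 4, 2, 3, 0, 3 and 2 members were called in the diet comparisons in the order above, the added call being Cdh24 in WT CD-LFD (0.91, adjusted p 0.0398 by edgeR). Few counts limit Cebpe, Ppp1r3e and Ripk3 in Ripk3KO, where 1 library can hold most of them.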
